A study of Mus musculus with 24 samples.

Results

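Gene expression was compared between the proximal ends of the mandible of Alk5 mutant embryos and of their control littermates at embryonic day 14.5. These were 6 of the 24 arrays of the series, chosen by their titles: 3 mutant arrays and 3 control arrays. The mutants came from matings of Wnt1cre;Alk5 fl/+ with Alk5 fl/fl mice on a C57B6 background, and mutants were picked by 2 visible defects, an open palate and a malformed calvaria. The controls were littermates, so they may carry floxed Alk5 alleles or the Wnt1cre transgene, and the labels give them no further genotype. Wnt1cre is active in the neural crest lineage, so epithelium, muscle, blood vessels and blood cells of the same pieces keep their own Alk5. The distal ends of the mandible and both ends of the maxilla of the same design made up the other 18 arrays. Total RNA of each piece, which the labels call proximal bone, was hybridised to an array of a single colour, and the values are log2 signals, on which a difference of 1 is a 2-fold difference.

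Alk5 is the type I receptor of TGF-β, and its gene symbol is Tgfbr1. The ligands TGF-β1, TGF-β2 and TGF-β3 bring it together with the type II receptor, and it then phosphorylates SMAD2 and SMAD3, which enter the nucleus with SMAD4 and act on genes of the extracellular matrix, of differentiation and of the feedback on the pathway itself. In the lower jaw the cranial neural crest forms Meckel's cartilage, the bone that ossifies beside it, the tendons, the connective tissue of the muscles and the dental mesenchyme. The proximal end carries the secondary cartilages and the insertions of the chewing muscles. Osteoclasts, which resorb the new bone, derive from the macrophage lineage and not from the neural crest.

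The tissue of origin was visible on all 6 arrays. The mandibular homeobox genes Dlx5 (11.59 to 11.84 in mutants, 11.56 to 11.74 in controls) and Dlx6 (10.71 to 10.96 in mutants, 10.72 to 10.95 in controls), the crest mesenchyme gene Prrx1 (13.20 to 13.24 in mutants, 12.86 to 12.96 in controls), the bone gene Col1a1 and the cartilage gene Col2a1 (11.76 to 13.01 in mutants, 13.22 to 13.38 in controls) all lay far above the level of 6.33 to 6.47 that was used to filter genes. Muscle and epithelial transcripts were high as well, so the pieces held more than bone. Array medians lay between 7.03 and 7.12 over the series. On average an array correlated with the others of its group at r = 0.9925 to 0.9932 in the mutants and 0.9955 to 0.9959 in the controls. Mutant array 3 stood apart in many skeletal genes and lay between the other mutants and the controls. Of all 1444 genes called lower in the mutant, skeletal or not, 1002 had it as the highest mutant array. Of the 1333 genes called higher, 470 had it as the lowest mutant array. Xist and the Y-linked genes also differed within the groups. Control 1 had Xist at 13.57 and a mean Y-linked level of 4.01, controls 2 and 3 had Xist at 6.23 and 6.75 with Y-linked levels of 9.48 and 9.56, mutant 2 had 13.03 and 4.14, and mutants 1 and 3 showed both, with Xist at 11.64 and 12.73 and Y-linked levels of 9.74 and 8.86. The 3′ minus 5′ difference of the pyruvate carboxylase control probe sets, a sign of RNA degradation, was 1.39, 1.5 and 1.68 in mutants 1 to 3, against 1.14, 1.37 and 1.38 in controls 1 to 3. For the other control transcripts it overlapped, at 0.08 to 0.124 in mutants and 0.108 to 0.112 in controls for Actb, and at -0.489 to -0.355 in mutants and -0.456 to -0.376 in controls for Gapdh. The part of mutant 3, of sex and of RNA quality in the results was not tested beyond leaving out each array and a fit with a sex score. The labels do not say whether each array stands for 1 embryo or for several, and mutants 1 and 3 carried transcripts of both sexes. The p-values thus measure the spread between arrays, which may be partly technical. In the main fit that spread was pooled for each gene over all groups of the series, not these 6 arrays alone. A standard error can thus be too small or too large for these arrays. C1qtnf3 had standard deviations of 1.34 in mutants and 0.19 in controls, with a standard error of 0.47. For Them5 they were 0.27 in mutants and 0.16 in controls, with a standard error of 0.54.

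The mutant proximal mandible had a loss of transcripts of bone, of the cells that resorb bone, of tendon and of cartilage. Transcripts of epithelium and of some patterning genes of the first arch and palate were gained. In limma, 2777 of 13942 genes tested (19.9%) passed an adjusted p of 0.05, of which 1333 (9.56%) were higher and 1444 (10.4%) were lower in the mutant. The median change over all genes was 0.04. The larger changes leaned to loss: 102 genes rose and 246 fell by at least 1 on the log2 scale, and 6 rose and 44 fell by at least 2. Most increases were small, since 903 of the genes called higher and 676 of those called lower changed by less than 0.5. The mutant and control arrays did not overlap in 4905 genes (35.2%), with the mutant arrays above in 2689 (19.3%) and below in 2216 (15.9%). Without mutant 3 the genes called were 1188 higher and 1563 lower, and without control 2 they were 786 higher and 1136 lower. Where a gene list below has 0 members in a direction, 0 also had an unadjusted p under 0.05 in it, with exceptions: 2 genes of Schwann cells and crest glia, 2 of the cell cycle, 1 of tooth and 1 of mandibular patterning were lower at that p, 1 cell cycle inhibitor or p53 target was higher, and FGF genes are given below. List members that were not tested lay under the filter or had no probe set of their own. Some genes are on more than 1 list, so the counts of different lists are not independent. In bulk tissue, fewer cells of a type and less RNA per cell cannot be told apart, and this holds for every gene group given here.

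Among the genes called whose mutant and control arrays did not overlap, leaving out Xist, Y-linked genes and unnamed transcripts, Hoxd1 rose most. It encodes a homeodomain factor of the HoxD cluster, and cells of the first pharyngeal arch normally express no Hox genes. Its level was 9.71, 8.49 and 8.53 in mutants 1 to 3, against 5.00, 4.72 and 4.80 in controls 1 to 3. All 3 mutant arrays were well above the filter level and all 3 controls below it, so the log2 change of 4.07 ± 0.67 (SE of the limma fit, n = 3 arrays per genotype throughout, adjusted p = 0.000267) is a lower limit and no fold is given. The same holds for the change of any gene whose mean in 1 group lay under the filter level. Of 17 Hox genes on the list, 7 were tested and 2 of them rose, which was 1 without mutant 1 or any 1 control and 4 without mutant 2. Hoxd9, the other one, was at 8.22, 7.46 and 7.47 in mutants and at 7.09, 7.08 and 7.15 in controls (0.61 ± 0.21, adjusted p = 0.0445), and its call ended without control 1, 2 or 3 or mutant 1. Of the members below the filter, Hoxa2, whose product gives second-arch cells their identity, averaged 5.94 in mutants and 4.93 in controls, and Hoxd3, a neighbour of Hoxd1, averaged 6.01 in mutants and 5.23 in controls, all of them near background.

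Cxcl14, a chemokine made by epithelia and mesenchyme, came next. It stood at 11.18, 10.98 and 10.98 in the mutants and at 8.25, 7.77 and 8.56 in the controls, a 7.23-fold increase (2.85 ± 0.42, adjusted p = 9.16e-05). The mutant arrays lay within a narrow range, more than 2 units above the highest control. The homeobox gene Emx2 was at 9.62, 8.90 and 9.41 in mutants and 7.02, 6.68 and 7.03 in controls (2.40 ± 0.33, 5.27-fold, adjusted p = 5.3e-05). Twist2, a basic helix-loop-helix factor that holds back osteoblast maturation, was at 11.45, 11.10 and 10.88 in mutants and 9.37, 8.83 and 9.24 in controls (2.0 ± 0.29, 4.0-fold, adjusted p = 7.64e-05). Its relative Twist1, also an inhibitor of osteoblast differentiation, rose less but evenly, at 11.93, 11.70 and 11.63 in mutants against 11.01, 11.04 and 10.91 in controls (0.77 ± 0.08, adjusted p = 8.41e-06). Neither gene showed overlap between the groups.

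The other 8 of the 12 largest increases were of several kinds. Krt1, the keratin of suprabasal epidermis, Krtdap, a secreted protein of differentiating keratinocytes, and Gjb6, a connexin of the epidermis, belong to stratified epithelium. Krt1 was at 9.91, 9.24 and 9.71 in mutants and 7.37, 6.78 and 7.36 in controls (2.45 ± 0.41, 5.46-fold, adjusted p = 0.000305). Krtdap rose by 2.50 ± 0.57 (adjusted p = 0.00402) and Gjb6 by 1.84 ± 0.28 (adjusted p = 0.000125). Nnat, an imprinted gene whose small protein sits in the endoplasmic reticulum, was at 10.87, 10.92 and 11.30 in mutants and 8.96, 9.27 and 9.27 in controls (1.86 ± 0.24, adjusted p = 3.08e-05). The synaptic organiser Cbln4 (2.50 ± 0.42, adjusted p = 0.000309), the thioesterase Them5 (1.99 ± 0.54, adjusted p = 0.0128) and the glutathione transferase Gstm7 (1.86 ± 0.31, adjusted p = 0.000334) rose too, with control means of Cbln4 and Them5 below the filter level, though control 1 of Cbln4 was just above it. The twelfth, the arginase gene Arg1 (1.78 ± 0.61, adjusted p = 0.0451), was also below it in controls and lost its call when control 1, control 2, mutant 2 or mutant 3 was left out (1.51 to 1.75, with adjusted p between 0.111 and 0.16).

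The largest decreases were in genes of mineralising tissue, and mutant 3 kept part of their expression. Mmp13, the collagenase of hypertrophic cartilage and of osteoblasts, was at 4.11 and 4.17 in mutants 1 and 2 but at 10.24 in mutant 3, against 11.06, 10.75 and 11.06 in the controls. Mutants 1 and 2 were thus at background and mutant 3 just under the controls, so that the change of -4.78 ± 1.62 (adjusted p = 0.0425) is an average of unlike arrays. Its call ended without any 1 of control 1, control 2, control 3, mutant 1 or mutant 2 (-4.88 to -3.75, with adjusted p between 0.0918 and 0.177), and without mutant 3 it was -6.82 (adjusted p = 0.0036). The call also ended with a sex score as covariate (-4.66, adjusted p = 0.0634) and with only the 6 arrays compared (adjusted p = 0.0618). Dmp1, an acidic matrix protein made by osteocytes, had the same form, with 6.66, 6.10 and 11.48 in mutants 1 to 3 and 12.89, 12.87 and 12.69 in controls (-4.74 ± 1.22, adjusted p = 0.00879). Without mutant 2 it was -3.75 (adjusted p = 0.0607), and without mutant 3 it was -6.44.

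Col22a1, a collagen of the junction between muscle and tendon, was at 7.31, 6.93 and 10.23 in mutants and 11.55, 11.72 and 11.59 in controls (-3.46 ± 0.68, 11.0-fold lower, adjusted p = 0.0012), again with mutant 3 between the groups. Atp1b4, a member of the Na,K-ATPase beta subunit family found in muscle, did not show this: it was at 5.35, 5.18 and 5.87 in mutants and 8.59, 8.75 and 9.9985 in controls (-3.65 ± 0.41, adjusted p = 9.71e-06, a lower limit because all 3 mutant levels were under the filter). Cgref1, which encodes an EF-hand protein, fell by 3.38 ± 0.53 (adjusted p = 0.000184). C1qtnf3, a secreted protein of cartilage, fell by 3.36 ± 0.47 (adjusted p = 5.97e-05). Kazald1, a secreted protein related to IGF-binding proteins, fell by 2.97 ± 0.45 (adjusted p = 0.000125), and the adhesion receptor gene Adgrd1 fell by 2.76 ± 0.35 (adjusted p = 2.67e-05). Mutant 3 was the highest mutant array in each of these 4. The lipid-binding gene Fabp4 changed by -3.05 ± 0.45 (adjusted p = 0.000104, a lower limit because its mutant mean was under the filter) with mutant 3 between the other mutants, though 1 of its 4 probe sets was higher in the mutant. Phex, Acp5 and Atp6v0d2, which complete the 12, are described with bone and osteoclasts.

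**Figure D1:**
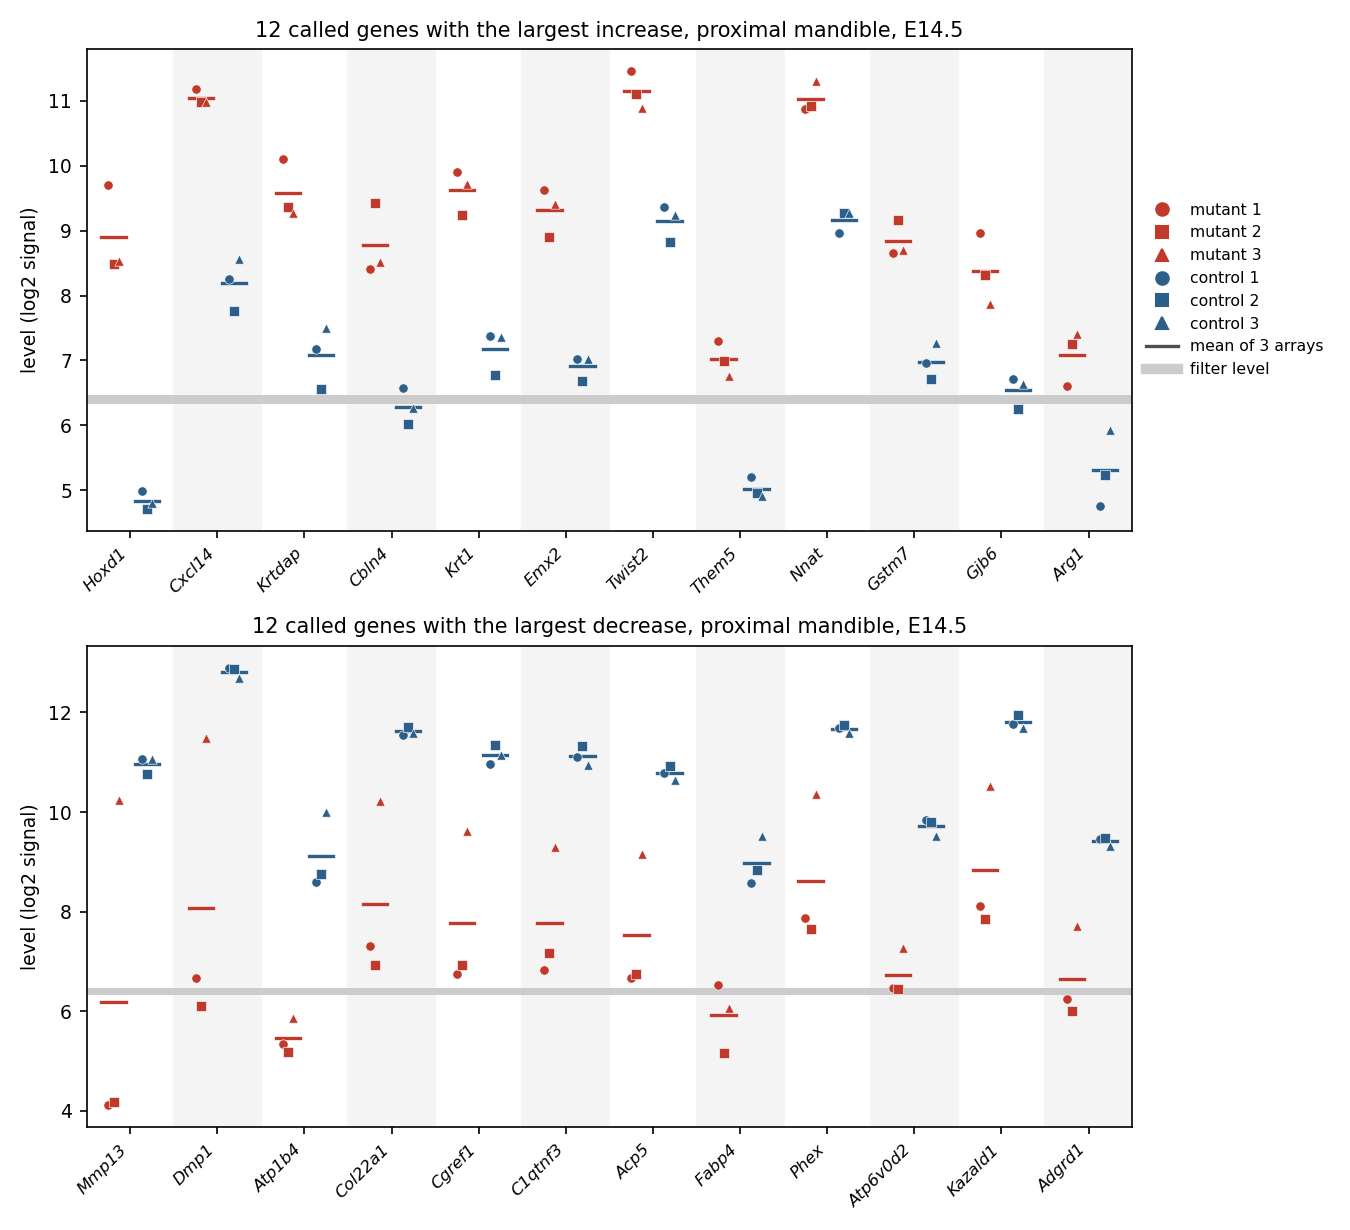
Levels on the log2 scale of the 12 genes with the largest increase and the 12 with the largest decrease, with mutant arrays in red left of control arrays in blue, one marker shape per replicate number, a short line at the mean of 3 arrays and a grey band at the filter level. The genes were picked among called genes whose mutant and control arrays do not overlap, so that separation follows from the choice. Mutant 3, the red triangle, lies near the controls for Mmp13 (10.24) and Dmp1 (11.48).

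Sequences upstream of the transcription start are shown for the genes with the largest falls and rises that have an entry in the RefSeq table of mouse build GRCm38.p6, to show what is found next to the start of genes that moved in opposite directions. Of the 24 genes above, 18 had a window, and Col22a1 and Krt1 are named only. Each line gives the 250 bases before the start, 5′ to 3′ on the strand of the gene, and capitals mark matches on either strand to the RUNX motif ACCACA, the AP-1 motif TGANTCA or the SMAD motif CAGAC.
Mmp13, chr9:7272264-7272513, plus strand: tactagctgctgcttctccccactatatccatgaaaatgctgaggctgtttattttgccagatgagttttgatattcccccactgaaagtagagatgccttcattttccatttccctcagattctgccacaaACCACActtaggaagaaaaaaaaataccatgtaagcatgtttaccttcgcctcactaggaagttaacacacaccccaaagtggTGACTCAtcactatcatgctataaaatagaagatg
Dmp1, chr5:104197325-104197574, plus strand: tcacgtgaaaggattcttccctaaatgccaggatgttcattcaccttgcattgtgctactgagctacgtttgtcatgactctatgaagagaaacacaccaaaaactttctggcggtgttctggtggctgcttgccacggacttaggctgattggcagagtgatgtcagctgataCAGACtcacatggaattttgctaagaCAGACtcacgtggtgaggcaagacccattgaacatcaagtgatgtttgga
Dmp1, chr5:104202367-104202616, plus strand: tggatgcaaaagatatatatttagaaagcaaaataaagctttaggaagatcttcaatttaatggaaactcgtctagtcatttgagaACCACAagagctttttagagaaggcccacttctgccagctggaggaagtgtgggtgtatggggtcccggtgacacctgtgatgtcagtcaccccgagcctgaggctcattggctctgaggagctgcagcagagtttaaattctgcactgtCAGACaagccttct
Hoxd1, chr2:74762730-74762979, plus strand: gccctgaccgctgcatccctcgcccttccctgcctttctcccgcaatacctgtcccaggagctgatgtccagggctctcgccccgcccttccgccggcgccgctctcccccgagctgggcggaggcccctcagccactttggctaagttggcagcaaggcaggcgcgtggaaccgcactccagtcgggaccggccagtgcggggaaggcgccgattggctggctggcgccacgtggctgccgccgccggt
Cxcl14, chr13:56296552-56296801, minus strand: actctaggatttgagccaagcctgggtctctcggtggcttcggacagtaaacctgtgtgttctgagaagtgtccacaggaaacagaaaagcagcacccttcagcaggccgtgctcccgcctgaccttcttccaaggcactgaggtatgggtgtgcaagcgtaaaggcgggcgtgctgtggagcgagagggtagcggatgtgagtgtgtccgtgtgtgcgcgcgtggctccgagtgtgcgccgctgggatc
The Mmp13 window held 1 RUNX match, whose first base is 118 bases before the start, and 1 AP-1 match, 35 bases before it. The first Dmp1 window held 2 SMAD matches, 76 and 50 bases before the start, and the second held 1 RUNX match at 164 and 1 SMAD match at 14 bases. The windows of Hoxd1 and Cxcl14 held none of the 3 motifs. A RUNX match was present in 14% of all 32851 windows, in 10.8% of those of genes tested, in 10.1% of the 228 windows of genes lower by at least 1 and in 7.95% of the 88 windows of genes higher by at least 1. For AP-1 these shares were 6.75%, 4.61%, 9.21% and 7.95%, and for SMAD they were 42.2%, 40.8%, 39.5% and 30.7%. A match is a description of the letters in a window, and it is no evidence of binding.

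Tgfbr1, the targeted gene, was not lower in the mutant. Its level was 12.45, 12.44 and 12.36 in mutants and 12.21, 12.0001 and 12.05 in controls, with all 3 probe sets on that side (0.33 ± 0.09, 1.26-fold, adjusted p = 0.0115, and 0.29 with adjusted p = 0.0621 without control 2). Where the probe sets lie relative to the floxed part is not given, and cells outside the crest keep the gene, so this level checks nothing about the labels. The 3 ligands moved in different directions. Tgfb2 was at 12.03, 11.89 and 11.90 in mutants and 11.06, 10.95 and 10.83 in controls (0.99 ± 0.11, 1.99-fold, adjusted p = 8.41e-06), a gain shared by all 4 probe sets and all 3 arrays. Tgfb1 was at 6.90, 7.19 and 8.51 in mutants and 8.92, 8.85 and 8.97 in controls (-1.38 ± 0.29, adjusted p = 0.00228). Tgfb3 was at 9.81, 9.90 and 10.48 in mutants and 10.82, 10.85 and 10.79 in controls (-0.75 ± 0.15, adjusted p = 0.00143). For both ligands that fell, mutant 3 was nearest to the controls.

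Among 12 ligand and receptor genes, 5 rose and 3 fell. The coreceptor Tgfbr3 rose by 0.76 ± 0.20 (adjusted p = 0.00984, and 0.0571 without control 2). The activin receptors Acvr1b (0.50 ± 0.09, adjusted p = 0.000743) and Acvr2b (0.55 ± 0.13, adjusted p = 0.00487) rose, and Acvr1, a type I receptor for BMPs, fell by 0.50 ± 0.09 (adjusted p = 0.000786), with 1 of its 3 probe sets against that direction. Without control 2 the higher members were 3. Tgfbr2, the type II receptor, was at 11.56, 11.36 and 11.57 in mutants and 11.75, 11.69 and 11.69 in controls, which did not pass (-0.21 ± 0.10, adjusted p = 0.147). Of 15 SMADs and regulators 2 rose and 2 fell, and without mutant 1 the number that rose was 4. The corepressor genes Tgif1 (0.69 ± 0.10, adjusted p = 6.29e-05) and Tgif2 (0.43 ± 0.07, adjusted p = 0.000401) rose. Skil, a corepressor that TGF-β itself induces, fell by 0.65 ± 0.08 (adjusted p = 1.67e-05), and Bambi, a decoy receptor, fell by 0.66 ± 0.16 (adjusted p = 0.00548). Smad2, Smad3, Smad4 and Smad7 did not pass.

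Genes that TGF-β induces in mesenchymal cells were mostly lower: 13 of 20 tested members fell and 0 rose (1 when replicate numbers are blocked), with a median of -0.79, against 10.4% lower and a median of 0.04 over all genes. The call of 12 of the 13 held whichever array was left out, and without mutant 3 the number was again 13. Pmepa1, a feedback inhibitor of SMAD signalling, was at 8.28, 8.44 and 8.72 in mutants and 9.32, 9.24 and 9.22 in controls (-0.78 ± 0.10, adjusted p = 2.16e-05). The matricellular gene Ccn1 fell by 0.97 ± 0.16 (adjusted p = 0.000213), the fibronectin gene Fn1 by 0.79 ± 0.12 (adjusted p = 9.74e-05) and the transcription factor gene Bhlhe40 by 0.94 ± 0.10 (adjusted p = 8.41e-06). The fibrillar collagens Col5a1 (-0.88 ± 0.18, adjusted p = 0.00165) and Col5a2 (-0.88 ± 0.13, adjusted p = 0.000125) fell by the same amount. Several members, such as Tnc, Postn and Timp1, are also made by bone and tendon cells.

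Among genes of the matrix that stores latent TGF-β and builds elastic fibres, 9 of 15 tested members fell and 0 rose, with a median of -0.62. Fbln5, which ties elastin to cells, was at 9.51, 9.78 and 9.73 in mutants and 11.27, 11.32 and 11.32 in controls (-1.63 ± 0.10, 3.1-fold lower, adjusted p = 2.93e-08). All 3 mutant arrays lay close together and mutant 3 did not stand apart. Elastin itself, Eln, was at 8.67, 8.25 and 9.35 in mutants and 10.21, 10.09 and 10.25 in controls (-1.43 ± 0.24, adjusted p = 0.000348). Among the latent TGF-β binding proteins, Ltbp3 fell by 0.62 ± 0.08 (adjusted p = 1.89e-05), Ltbp1 by 0.50 ± 0.09 (adjusted p = 0.000754) and Ltbp2 by 1.34 ± 0.22 (adjusted p = 0.000241), the last to a level under the filter. Lox, the enzyme that crosslinks collagen and elastin, fell by 1.05 ± 0.22 (adjusted p = 0.00177).

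**Figure D2:**
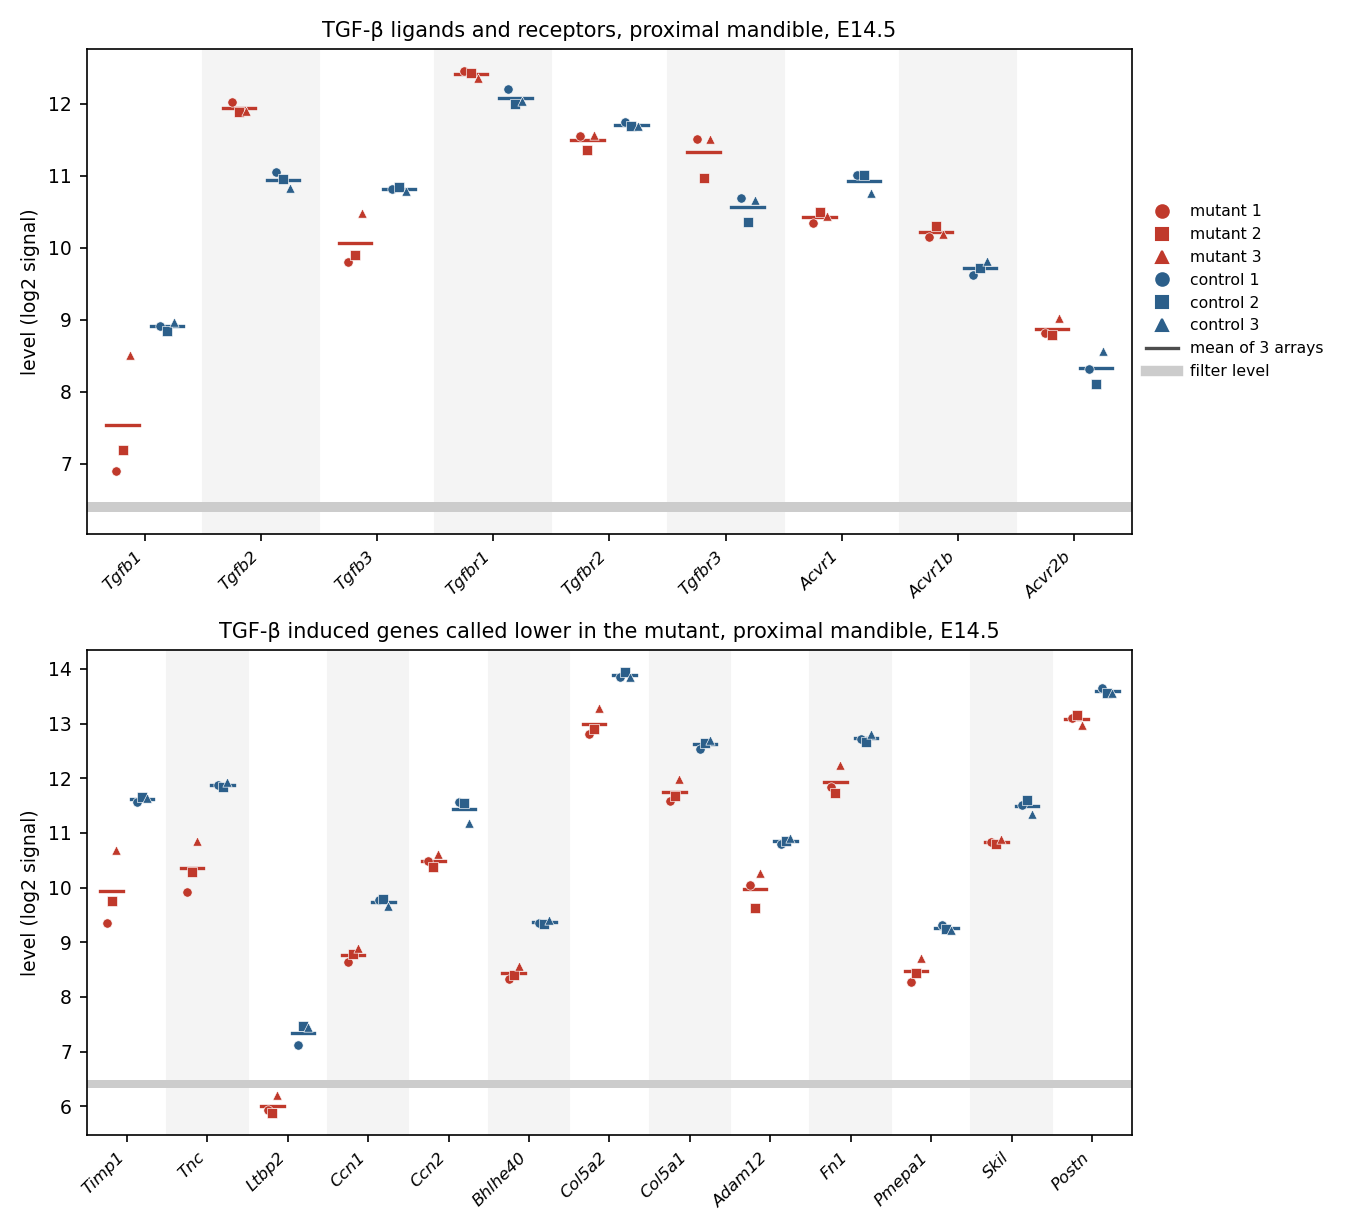
Log2 levels of TGF-β ligands and receptors and of the 13 TGF-β induced genes called lower, with mutant arrays in red left of control arrays in blue and a short line at the mean of 3 arrays. Tgfb2 is higher in all 3 mutants (11.89 to 12.03) than in the controls (10.83 to 11.06), whereas Tgfb1 and Tgfb3 are lower.

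Bone matrix and mineralisation genes fell in 15 of 16 tested members, of 22 on the list, with a median of -1.71, and rose in 0. The call of 13 of them held whichever array was left out, and 15 fell also without mutant 3, with a median of -2.07. Mutant 3 was the highest mutant array for all 15. Type I collagen, the main fibre of bone, was lower in both chains: Col1a1 was at 11.35, 11.20 and 12.64 in mutants and 13.32, 13.03 and 13.35 in controls (-1.5 ± 0.32, 2.83-fold lower, adjusted p = 0.00216), and Col1a2 fell by 0.52 ± 0.11 (adjusted p = 0.00172). That Col1a2 probe set averaged 14.82 in controls, near the highest value of the series, 14.86. Probe sets not used in the main fit changed by -0.94 and -1.86 for Col1a2 and by -2.28 for Col1a1. Alpl, the phosphatase that frees phosphate for mineral, was at 9.51, 10.34 and 11.07 in mutants and 12.12, 12.23 and 11.97 in controls (-1.80 ± 0.31, adjusted p = 0.000348). Phex, whose loss causes X-linked hypophosphataemia, was at 7.87, 7.65 and 10.35 in mutants and 11.68, 11.74 and 11.59 in controls (-3.05 ± 0.81, adjusted p = 0.011), and it did not pass without mutant 1 (-2.67, adjusted p = 0.0501) or mutant 2 (-2.56, adjusted p = 0.0631).

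Genes that mark osteoblasts at work fell together. Ifitm5, a membrane protein of osteoblasts, fell by 2.14 ± 0.54 (adjusted p = 0.0081). The channel gene Panx3 fell by 2.03 ± 0.42 (adjusted p = 0.00191), the citrate transporter Slc13a5 by 2.03 ± 0.30 (adjusted p = 0.000115) and the proteoglycan gene Omd by 2.09 ± 0.41 (adjusted p = 0.00127). The sphingomyelinase Smpd3, needed for mineralisation in mice, fell by 1.61 ± 0.34 (adjusted p = 0.00212), and Tnn, a tenascin, fell by 1.58 ± 0.19 (adjusted p = 1.97e-05). The member that did not pass was Ibsp, bone sialoprotein, at 12.18, 11.95 and 13.28 in mutants and 13.76, 13.91 and 13.74 in controls (-1.33 ± 0.65, adjusted p = 0.171, and 0.0385 when replicate numbers are blocked). All 3 mutants were below all 3 controls in this gene too. The other Ibsp probe set, not used in the main fit, averaged 10.98 in mutants and 13.46 in controls (-2.48).

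Of 18 genes of osteoblast commitment, 3 fell and 2 rose, and without mutant 3 the number that fell was 5. Sp7, the osterix factor that commits cells to bone, was at 9.61, 10.30 and 10.52 in mutants and 11.73, 11.76 and 11.43 in controls (-1.5 ± 0.28, 2.82-fold lower, adjusted p = 0.000754). Creb3l1, a transcription factor that acts in osteoblasts, fell by 1.5 ± 0.29 (adjusted p = 0.00101) and Postn, a protein of the periosteum, fell by 0.51 ± 0.12 (adjusted p = 0.00449). The 2 that rose were Twist1 and Twist2.

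Genes of osteoclasts and of RANK signalling fell in 14 of 15 tested members, of 16 on the list, and rose in 0. The median was -1.20, and 11 of the 14 held whichever array was left out. Atp6v0d2, a subunit of the proton pump that acidifies the resorption pit, was at 6.47, 6.45 and 7.27 in mutants and 9.83, 9.81 and 9.52 in controls (-2.99 ± 0.24, 7.96-fold lower, adjusted p = 8.34e-07). Acp5, the tartrate-resistant acid phosphatase used to stain osteoclasts, was at 6.67, 6.74 and 9.16 in mutants and 10.78, 10.93 and 10.64 in controls (-3.26 ± 0.66, adjusted p = 0.00144). Mutant 3 was well above the other mutants in Acp5 but by less in Atp6v0d2. The fusion genes Dcstamp (-1.78 ± 0.18, adjusted p = 5.89e-06) and Ocstamp (-2.06 ± 0.19, adjusted p = 2.36e-06, a lower limit because all 3 mutant levels were under the filter), the collagen-cutting protease Ctsk (-1.73 ± 0.27, adjusted p = 0.000158) and the gelatinase Mmp9 (-2.76 ± 0.47, adjusted p = 0.000348) fell as well.

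The same list holds signals that make osteoclasts, which fell, and Tnfrsf11b, the decoy receptor that holds RANK ligand back, which fell too. Tnfsf11, Tnfrsf11b, Csf1 and Csf1r, given here, are thus among the 14. The Tnfrsf11b call ended without control 1 (-0.58, adjusted p = 0.125). It also ended without control 2, mutant 1 or mutant 2 (-0.79 to -0.68, with adjusted p between 0.0505 and 0.0771). Tnfsf11, the RANK ligand that osteoblast lineage cells present, was at 5.71, 7.43 and 6.98 in mutants and 8.86, 8.86 and 8.29 in controls (-1.96 ± 0.47, adjusted p = 0.0058). Csf1, the growth factor of macrophages and osteoclasts, fell by 0.76 ± 0.11 (adjusted p = 9.92e-05) and its receptor Csf1r by 0.92 ± 0.20 (adjusted p = 0.00314). Macrophage and leukocyte markers moved the same way, with 7 of 15 tested members lower, 0 higher and a median of -0.68. Csf1r is counted among these 7 as well. The mean level of that list was 8.51, 8.30 and 8.83 in mutants 1 to 3, against 9.08, 9.01 and 9.26 in controls 1 to 3. The pan-leukocyte gene Ptprc fell by 1.10 ± 0.22 (adjusted p = 0.00126), Cd68 by 1.30 ± 0.23 (adjusted p = 0.000592) and the myeloid factor gene Spi1 by 0.68 ± 0.13 (adjusted p = 0.000716). The chemokine gene Ccl9, which osteoclasts make, was at 6.69, 7.14 and 7.79 in mutants and 9.83, 9.94 and 9.89 in controls (-2.68 ± 0.38, 6.41-fold lower, adjusted p = 7.64e-05). The part of macrophages in the osteoclast result was not tested.

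Cartilage matrix genes had a median of -1.56, and 10 of 21 tested members, of 23 on the list, fell with 0 higher. The number was 5 without mutant 1 or without mutant 2 and 11 without mutant 3, and 5 of the 10 held whichever array was left out. Without mutant 2 the median was -0.97. Col11a1, a collagen of thin cartilage fibrils, was at 10.99, 10.84 and 12.15 in mutants and 13.12, 13.03 and 12.88 in controls (-1.68 ± 0.35, 3.21-fold lower, adjusted p = 0.00188). Chad, a cartilage protein that binds cells, fell by 1.82 ± 0.31 (adjusted p = 0.000348), and Cilp, of the intermediate layer of cartilage, fell by 1.69 ± 0.21 (adjusted p = 2.32e-05) to a level under the filter. The genes best known from cartilage did not pass although all 3 mutants were under all 3 controls. Col2a1, the main collagen, changed by -1.07 ± 0.58 (adjusted p = 0.221), and the proteoglycan gene Acan, at 8.56, 8.27 and 9.83 in mutants and 10.71, 10.43 and 10.23 in controls, changed by -1.57 ± 0.62 (adjusted p = 0.0825). Matn1 was at 10.03, 8.86 and 11.23 in mutants and 11.80, 11.72 and 11.27 in controls (-1.56 ± 1.02, adjusted p = 0.326).

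Of 13 chondrocyte factors and genes of the Ihh and PTHrP loop, 6 fell and 1 rose, and 0 rose without control 2, mutant 1 or mutant 3. Pth1r, the receptor for PTHrP, was at 11.03, 11.41 and 11.53 in mutants and 11.95, 12.33 and 11.98 in controls (-0.77 ± 0.17, adjusted p = 0.00311). Runx3, a factor of maturing chondrocytes, fell by 0.97 ± 0.22 (adjusted p = 0.00317), though 1 of its 2 probe sets was higher. Ihh, the signal of prehypertrophic chondrocytes, changed by -0.56 ± 0.14 (adjusted p = 0.00748, and -0.42 with 0.0609 without control 2). Of 18 matrix proteases and inhibitors 11 fell and 2 rose. Timp1, an inhibitor of metalloproteinases, was at 9.35, 9.76 and 10.68 in mutants and 11.56, 11.66 and 11.65 in controls (-1.69 ± 0.30, adjusted p = 0.000586). Mmp16, a membrane-bound protease, fell by 1.35 ± 0.15 (adjusted p = 8.66e-06), while Mmp11 (0.62 ± 0.10, adjusted p = 0.000211) and Adamts1 (0.70 ± 0.16, adjusted p = 0.00458) rose. Without mutant 2 the lower members were 7.

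Tendon and ligament genes fell in 11 of 19 tested members and rose in 0, with a median of -0.87, and 10 of the 11 held whichever array was left out. Tnmd, a membrane protein of tendon cells, was at 6.93, 8.47 and 8.38 in mutants and 10.65, 10.58 and 10.81 in controls (-2.75 ± 0.30, 6.73-fold lower, adjusted p = 8.41e-06). Fmod, which regulates collagen fibrils, was at 6.84, 8.31 and 8.02 in mutants and 10.41, 10.53 and 10.49 in controls (-2.75 ± 0.31, 6.71-fold lower, adjusted p = 9.68e-06), on all 6 probe sets. In both genes mutant 1, and not mutant 2, was the lowest. Scx, the transcription factor of the tendon lineage, was at 6.45, 6.57 and 6.84 in mutants and 7.82, 8.17 and 7.85 in controls (-1.33 ± 0.19, adjusted p = 7.34e-05). Thbs4, a thrombospondin of tendon, fell by 2.56 ± 0.37 (adjusted p = 8.9e-05). Aspn, a small proteoglycan that binds TGF-β, was at 9.73, 10.20 and 10.80 in mutants and 12.47, 12.62 and 12.17 in controls (-2.18 ± 0.22, 4.53-fold lower, adjusted p = 5.89e-06). Tnc, a tenascin, fell by 1.53 ± 0.32 (adjusted p = 0.00199) and Col12a1, a collagen of dense connective tissue, by 1.30 ± 0.15 (adjusted p = 1.16e-05).

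Muscle fibres were present on every array. The 30 sarcomere and contractile genes had a mean level of 9.87, 9.0 and 10.24 in mutants 1 to 3, against 10.14, 10.36 and 11.25 in controls 1 to 3, which overlap. Of the 30, 4 fell and 0 rose, with a median of -0.65, and without control 2, control 3, mutant 1 or mutant 2 the number was 2. With replicate numbers blocked and only the 6 arrays compared, a setting added after the data were seen, 16 fell. The median was -0.33 without control 3 and -0.35 without mutant 2. Ckm, the muscle creatine kinase, was at 7.10, 6.72 and 7.23 in mutants and 8.96, 9.17 and 10.48 in controls (-2.52 ± 0.41, 5.75-fold lower, adjusted p = 0.000225), with 1 of its 2 probe sets against that direction. Atp1b4, given above, and Ckm kept their call whichever array was left out. The embryonic myosin Myh3 changed by -1.16 ± 0.78 (adjusted p = 0.336) and the skeletal actin Acta1 by -1.02 ± 0.65 (adjusted p = 0.312), neither of which passed. The determination gene Myod1, at 10.19, 9.43 and 10.45 in mutants and 9.57, 9.49 and 10.15 in controls, overlapped between the groups, as did Myog.

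**Figure D3:**
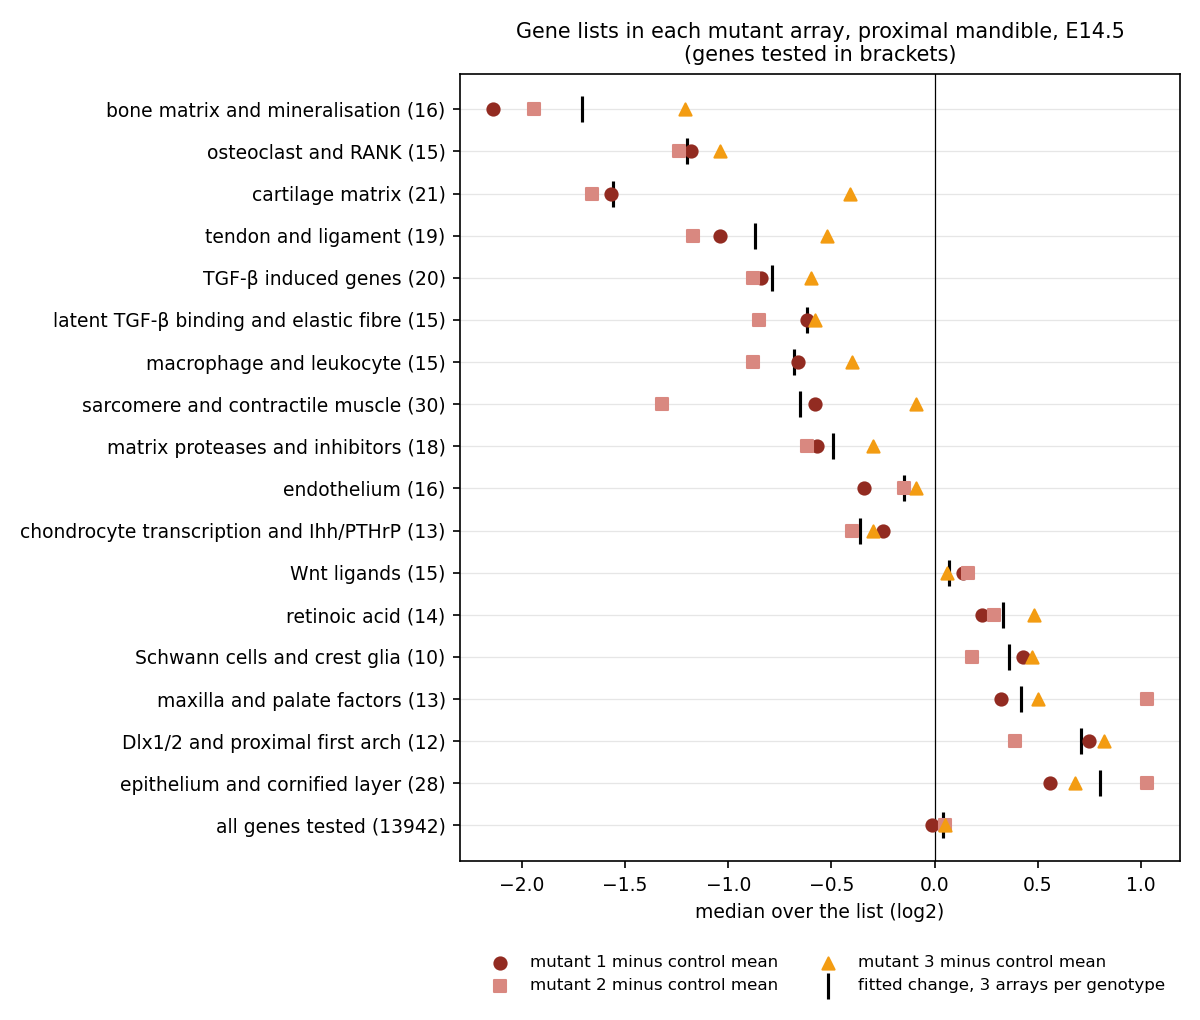
Median over each gene list of the difference between a mutant array and the mean of the 3 controls, in log2 units, with 1 marker per mutant array and a vertical tick at the fitted change. For bone the 3 mutants are at -2.14, -1.94 and -1.21 and for cartilage at -1.57, -1.66 and -0.41, so mutant 3 is nearest to 0 in both, while for epithelium they are at 0.56, 1.03 and 0.68.

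Epithelial transcripts were higher in the mutant. Of 28 tested members of the epithelium and cornified layer list, which has 32, 11 rose and 0 fell, with a median of 0.80, against 9.56% higher over all genes. The mean level of the list was 9.62, 9.86 and 9.66 in mutants 1 to 3 and 8.97, 8.54 and 9.22 in controls 1 to 3, which do not overlap. Without control 2, the lowest control, or without mutant 2, the highest mutant, the number was 7, and 7 of the 11 held whichever array was left out. The amount of surface epithelium left on the dissected pieces is not given, and its part in the result was not tested. The suprabasal genes led, with Krt1 and Krtdap given above and Krt10 at 11.19, 10.57 and 10.65 in mutants and 9.26, 9.21 and 9.37 in controls (1.52 ± 0.38, 2.87-fold, adjusted p = 0.00706). The keratins of the basal layer did not pass: Krt5 was at 11.18, 11.87 and 11.48 in mutants and 10.74, 10.39 and 11.08 in controls (0.78 ± 0.41, adjusted p = 0.204), and Krt14 changed by 0.89 ± 0.42 (adjusted p = 0.149).

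Other epithelial genes were on the same side. Cdh1, E-cadherin, was at 10.79, 10.76 and 10.39 in mutants and 10.08, 9.41 and 9.97 in controls (0.83 ± 0.19, adjusted p = 0.00366). The tight junction gene Cldn4 rose by 1.15 ± 0.16 (adjusted p = 7.2e-05), the splicing factor gene Esrp1 by 1.06 ± 0.17 (adjusted p = 0.000167) and Grhl3, a factor of the epidermal barrier, by 1.47 ± 0.27 (adjusted p = 0.000709). The filaggrin gene Flg and the involucrin gene Ivl, of the fully cornified layer, lay below the filter in both groups.

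**Figure D4:**
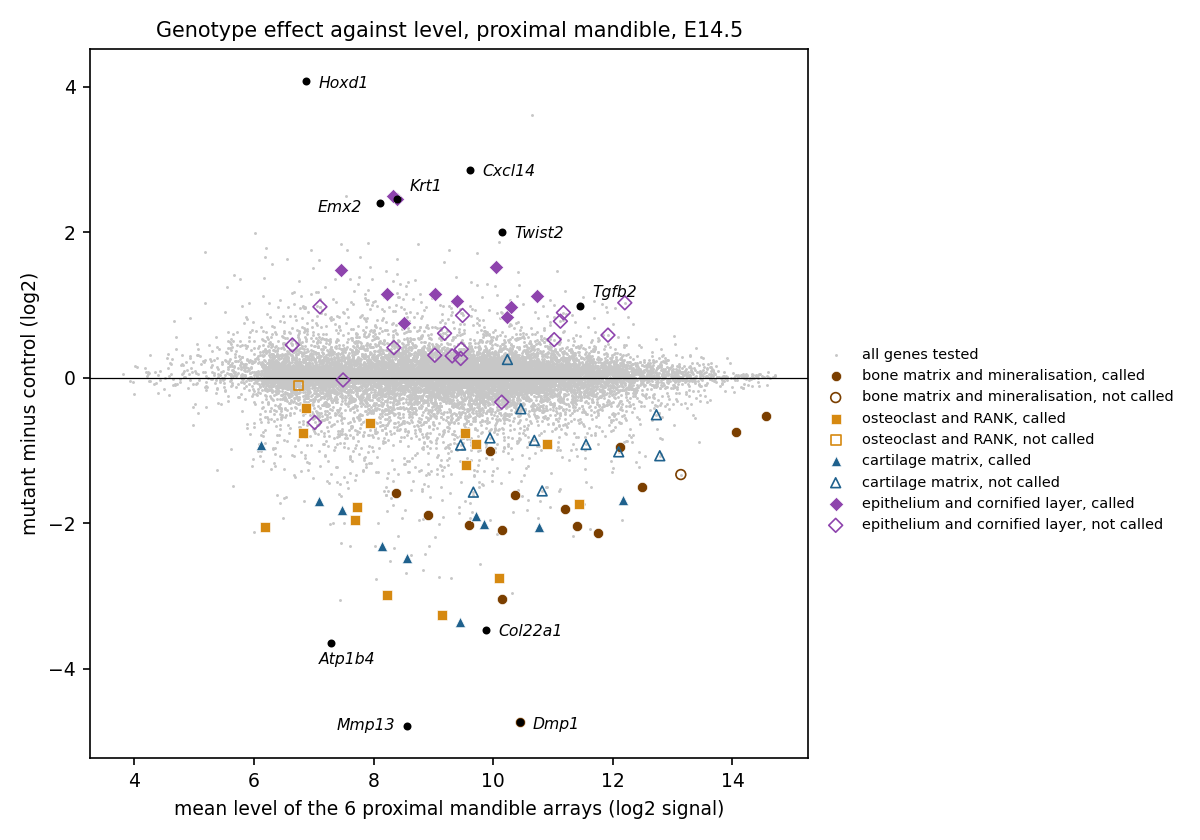
Log2 change of each tested gene (vertical axis) against its mean log2 level over the 6 arrays (horizontal axis), with the bone, osteoclast, cartilage and epithelium lists in colour, filled where called and open where not. The bone and osteoclast genes called lie below 0 at all levels, and the epithelial genes called lie above it.

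Several genes that place cells along the arch were higher in the mutant, where 9.56% of all genes were. Of 12 factors of the proximal first arch, 6 rose and 0 fell, with a median of 0.71, and the number was 3 without control 2 or without mutant 1. Beside Emx2, the nuclear receptor gene Nr2f2 was at 12.62, 11.95 and 12.48 in mutants and 11.52, 11.17 and 11.66 in controls (0.90 ± 0.20, 1.87-fold, adjusted p = 0.00337). The homeobox gene Meis2 was at 11.87, 11.17 and 11.40 in mutants and 10.35, 10.26 and 10.60 in controls (1.07 ± 0.15, 2.11-fold, adjusted p = 7.64e-05). Those 3 genes held their call whichever array was left out. The calls of Pou3f3, Nr2f1 and Meis1, the rest of the 6, each ended without control 2 and also without mutant 1. Dlx1 and Dlx2, also on that list, were not among the 6. Dlx5 and Dlx6 overlapped between the groups. Of 11 genes of mandibular patterning 1 rose and 0 fell, and with replicate numbers blocked 2 rose and 1 fell. With only the 6 arrays compared 3 rose, and without mutant 3, 1 fell.

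Of 10 genes of the distal arch, 2 rose, and 1 without mutant 2. Hand2, which gives the distal mandible its identity, was at 10.84, 11.87 and 10.70 in mutants and 9.77, 9.73 and 9.55 in controls (1.45 ± 0.36, 2.74-fold, adjusted p = 0.00662, and 1.09 with adjusted p = 0.0519 without mutant 2). Foxd1, a forkhead gene, rose by 1.42 ± 0.32 (adjusted p = 0.00373). Of 13 factors of the maxilla and palate, 5 rose and 0 fell, with a median of 0.42, and without control 1 or control 2 the number was 3. Osr2, an odd-skipped factor of palatal and mandibular mesenchyme, was at 9.91, 10.04 and 10.24 in mutants and 8.70, 8.38 and 8.96 in controls (1.38 ± 0.24, 2.61-fold, adjusted p = 0.000502). Its relative Osr1 rose by 1.11 ± 0.23 (adjusted p = 0.00177) and the T-box gene Tbx15 by 1.13 ± 0.28 (adjusted p = 0.00681). The crest mesenchyme genes Prrx2, at 10.56 to 10.94 in mutants and 10.80 to 10.93 in controls, and Msx1, at 11.35 to 11.9963 in mutants and 11.75 to 11.88 in controls, overlapped between the groups. Prrx1 and Twist1, also markers of crest mesenchyme and given above, did not overlap and were higher in every mutant array.

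Wnt pathway genes moved both ways. Of 15 genes that respond to Wnt signalling, 6 rose and 5 fell, with a median of -0.04. Axin2, the standard readout of canonical signalling, was at 9.57, 9.70 and 9.70 in mutants and 8.84, 8.37 and 8.81 in controls (0.98 ± 0.12, 1.98-fold, adjusted p = 1.41e-05). Lef1, a nuclear mediator of Wnt signals, was at 10.49, 10.46 and 10.21 in mutants and 9.54, 9.43 and 9.43 in controls (0.92 ± 0.12, 1.9-fold, adjusted p = 2.32e-05). Apcdd1, a membrane inhibitor that Wnt induces, rose by 1.19 ± 0.18 (adjusted p = 0.000125) on all 6 probe sets, and Sp5 rose by 1.04 ± 0.24 (adjusted p = 0.00365). The members that fell include secreted inhibitors made by skeletal cells. Wif1, which binds Wnt ligands, was at 9.85, 9.98 and 10.59 in mutants and 11.69, 11.77 and 11.48 in controls (-1.5 ± 0.24, 2.84-fold lower, adjusted p = 0.000229). Dkk1, which blocks the Wnt coreceptor, was at 9.36, 9.75 and 10.16 in mutants and 11.36, 11.28 and 10.91 in controls (-1.43 ± 0.22, 2.69-fold lower, adjusted p = 0.000129).

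Of 11 secreted Wnt antagonists 4 fell and 1 rose, the last being Dkk2 (0.63 ± 0.13, adjusted p = 0.00155). Wif1, Dkk1 and Notum, which are among the 4, were also counted among the Wnt response genes that fell. Of 15 Wnt ligands and R-spondins tested, 4 rose and 1 fell, and the number that fell was 0 without control 1, control 2 or mutant 1 and 2 without control 3. Wnt4 rose by 1.03 ± 0.20 (adjusted p = 0.00103), Wnt5a by 0.85 ± 0.20 (adjusted p = 0.00585), Wnt6 by 0.98 ± 0.18 (adjusted p = 0.000685) and Wnt7b by 0.69 ± 0.12 (adjusted p = 0.000641), each with its arrays apart. Wnt4, Wnt6 and Wnt7b are made by oral and skin epithelium, whose markers were higher in the same arrays, and the part of that epithelium was not tested.

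BMP, Notch and hedgehog genes changed in both directions, where 9.56% of all genes were higher and 10.4% lower. Of 16 BMP ligands and antagonists 5 fell and 1 rose. Bmp5, a ligand of skeletal condensations, was at 8.66, 8.51 and 8.82 in mutants and 9.86, 9.92 and 9.59 in controls (-1.12 ± 0.17, 2.18-fold lower, adjusted p = 0.00013), and the antagonist Grem1 fell by 0.79 ± 0.18 (adjusted p = 0.0041). Of 11 BMP response genes 2 rose and 1 fell, with Id1 at 0.43 ± 0.06 (adjusted p = 6.93e-05). Without control 3 or mutant 2 only 1 rose, and 2 fell when replicate numbers are blocked. In the Notch pathway 2 of 16 genes rose (12.5%) and 1 fell (6.25%), near the shares over all genes. Without mutant 2 the number that rose was 1, and the number that fell was 0 without control 2 and 2 with the block. The Notch target Hey2 was at 8.33, 9.11 and 7.85 in mutants and 6.87, 6.77 and 6.40 in controls (1.75 ± 0.29, 3.36-fold, adjusted p = 0.000297). Of 13 hedgehog genes 2 fell (15.4%) and 1 rose (7.69%), also near the shares over all genes. The number that fell was 0 without control 2 and 1 without mutant 1 or mutant 2, and 2 rose without mutant 2. The receptor gene Ptch1 did not pass (-0.61 ± 0.22, adjusted p = 0.0548, and 0.0294 when replicate numbers are blocked). In the FGF pathway 0 of 17 genes passed in limma, and 2 were higher and 1 lower at an unadjusted p under 0.05, with Fgf10 at 0.56 ± 0.23 (adjusted p = 0.0998). Without mutant 3, 2 FGF genes fell, without control 3, 1 rose, and with the block 1 fell.

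Retinoid and IGF genes changed in both directions, where 9.56% of all genes were higher and 10.4% lower. Of 14 retinoic acid genes 5 rose and 2 fell. Crabp1, which binds retinoic acid in the cytoplasm and is expressed in crest mesenchyme, was at 12.62, 12.33 and 12.61 in mutants and 11.51, 11.59 and 11.59 in controls (0.96 ± 0.10, adjusted p = 8.41e-06). Crabp2 rose by 0.82 ± 0.14 (adjusted p = 0.000482). Aldh1a3, an enzyme that makes retinoic acid, was at 8.13, 7.96 and 8.81 in mutants and 9.94, 9.93 and 10.08 in controls (-1.68 ± 0.33, 3.21-fold lower, adjusted p = 0.00109), and the retinol carrier Rbp4 fell by 1.55 ± 0.22 (adjusted p = 7.64e-05). Of 14 IGF genes 3 fell and 1 rose, and without mutant 3 the number that fell was 6. The 2 pappalysins, proteases that free IGF from its binding proteins, went apart: Pappa was at 8.79, 8.61 and 8.56 in mutants and 7.64, 6.93 and 7.32 in controls (1.36 ± 0.19, adjusted p = 7.15e-05), and Pappa2 was at 8.12, 8.25 and 9.09 in mutants and 10.18, 10.09 and 9.95 in controls (-1.59 ± 0.27, adjusted p = 0.000345).

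Some nerve genes were higher and some vessel genes lower, where 9.56% of all genes were higher and 10.4% lower. Of 10 Schwann cell and crest glia genes 3 rose, among them Sox10 (0.58 ± 0.16, adjusted p = 0.0117) and Erbb3 (0.52 ± 0.12, adjusted p = 0.00402), and of 11 neuronal genes 2 rose, with the growth cone gene Gap43 at 0.79 ± 0.16 (adjusted p = 0.00153). Without control 2, mutant 1 or mutant 2 only 1 neuronal gene rose, and without mutant 3, 1 Schwann cell gene fell. Of 24 axon guidance genes 6 rose and 2 fell, and without control 2, mutant 1 or mutant 3 the number that rose was 3, while 4 fell with the block. Sema3c, a secreted guidance cue, fell by 0.88 ± 0.12 (adjusted p = 6.02e-05) and the netrin receptor gene Unc5b by 0.99 ± 0.15 (adjusted p = 0.000121), while the ephrin receptor gene Epha4 rose by 0.69 ± 0.17 (adjusted p = 0.00652). Of 16 endothelial genes 5 fell and 0 rose, with a median of -0.15. Without control 1 the number that fell was 3, and without mutant 1, 1 rose. The VEGF receptor Kdr fell by 0.48 ± 0.10 (adjusted p = 0.00135), but Pecam1, at 9.23 to 9.75 in mutants and 9.43 to 9.64 in controls, and Cdh5, at 9.74 to 10.14 in mutants and 9.92 to 10.03 in controls, overlapped between the groups.

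Genes of proliferation and stress were counted beside 9.56% higher and 10.4% lower over all genes. Of 19 cell cycle genes 1 rose (5.26%) and 0 fell, and the number that fell was 1 without mutant 2 or mutant 3 and 2 with replicate numbers blocked. The one that rose was Ccnd1, the cyclin of early G1 (0.44 ± 0.11, adjusted p = 0.00716, and 0.058 with only the 6 arrays compared). Of 10 cell cycle inhibitors and p53 targets 1 fell, which was 2 without mutant 3 and 3 with the block. Of 16 hypoxia and glycolysis genes 1 rose (6.25%) and 2 fell (12.5%), and 2 rose with the block. Leaving out any 1 array other than mutant 3 left 0 of them higher. By limma 0 of 6 erythroid genes and 0 of 8 nasal and ciliated epithelium genes passed, and 0 of either had an unadjusted p under 0.05. Of 12 tooth genes 2 rose, Lef1 and Bcl11b (0.86 ± 0.13, adjusted p = 0.000101), both of dental mesenchyme or epithelium.

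The effect of the genotype was then set against that in the distal mandible, with 3 arrays per genotype and region and the same fit. In the distal mandible 2231 genes (16%) were called. The difference between the effects passed for 15 of 13942 genes (0.108%), 6 (0.043%) with a more positive and 9 (0.0646%) with a more negative effect in the proximal end, and 686 had an unadjusted p under 0.05. With the replicate number as a block, which pairs the ends of a mandible, the number was 56. It was 1 without control 2 of either end and 29 without proximal mutant 3. Dkk1 had the lowest adjusted p of the named genes. It averaged 9.76 in mutants and 11.18 in controls at the proximal end, but 10.60 in mutants and 9.76 in controls at the distal end, so that it was lower in the mutant proximally (-1.43) and higher distally (0.84), with a difference of effects of -2.27 ± 0.31 (adjusted p = 0.00681). This was the one named gene of the 10 whose call held whichever of 12 arrays was left out.

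The remaining 9 named genes of this contrast lost their call without control 2 of either end or mutant 2 of the distal end, and some without other arrays too, to adjusted p of at most 0.151. Dkk4, a second Wnt inhibitor, was near background in the proximal end, at 6.20 in mutants and 6.37 in controls, and at 8.66 in mutants and 6.23 in controls in the distal end (-2.59 ± 0.43, adjusted p = 0.0176). Tspan8, a tetraspanin gene, changed by -0.27 proximally and by -2.46 distally (2.19 ± 0.35, adjusted p = 0.0176). Nr5a2, a nuclear receptor gene, was at 9.37 in mutants and 8.03 in controls proximally, and at 7.73 in mutants and 8.28 in controls distally (1.89 ± 0.33, adjusted p = 0.0219). Tfap2b, a crest factor gene, was higher in the mutant by 0.43 proximally and by 2.40 distally (-1.97 ± 0.37, adjusted p = 0.0388).

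Against the proximal maxilla, where 1470 genes (10.5%) were called, the difference of effects passed for 136 genes (0.975%), 47 (0.337%) more positive and 89 (0.638%) more negative in the mandible. Without mandibular mutant 3 the number was 290 and without mandibular control 2 it was 34, and blocking on the replicate number made it 607. Genes of tendon and osteoclasts were among the largest. Tnmd averaged 7.93 in mutants and 10.68 in controls in the mandible, against 9.39 in mutants and 9.63 in controls in the maxilla (-2.51 ± 0.42, adjusted p = 0.00935). Atp6v0d2 averaged 6.73 in mutants and 9.72 in controls in the mandible, against 6.08 in mutants and 6.82 in controls in the maxilla (-2.26 ± 0.34, adjusted p = 0.00586). Mamdc2, which encodes a secreted MAM domain protein, averaged 7.5 in mutants and 10.15 in controls in the mandible, against 7.73 in mutants and 7.96 in controls in the maxilla (-2.42 ± 0.41, adjusted p = 0.00935). In these 3 the maxillary controls were lower than the mandibular ones, and the calls held whichever array was left out, but those of Tnmd and Mamdc2 did not pass with only the compared arrays in the fit.

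Emx2 and Hand2 went the other way. Emx2 was at 9.31 in mutants and 6.91 in controls of the mandible, while in the maxilla it was high in both, at 10.11 in mutants and 9.88 in controls (2.17 ± 0.47, adjusted p = 0.0313). Hand2 was at 11.14 in mutants and 9.68 in controls of the mandible and near the filter level in the maxilla, at 6.29 in mutants and 7.04 in controls (2.21 ± 0.51, adjusted p = 0.0411). Without control 1, 2 or 3 or mutant 1 of the mandible, both calls ended, as they did without some of the maxillary arrays (highest adjusted p 0.097 for Emx2 and 0.119 for Hand2). Tspan8 fell in the maxilla (-2.59) and not in the proximal mandible (2.32 ± 0.35, adjusted p = 0.00586), and its call held throughout. The lists differed in size of effect without a test: cartilage had a median of -1.56 in the proximal mandible, against -2.31 in the distal mandible and -2.88 in the proximal maxilla (-0.97 in the proximal mandible without mutant 2), and bone had -1.71 in the proximal mandible, against -1.5 in the distal mandible and -0.99 in the proximal maxilla. Muscle had -0.65 in the proximal mandible, -2.36 in the distal mandible and 0.41 in the proximal maxilla.

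**Figure D5:**
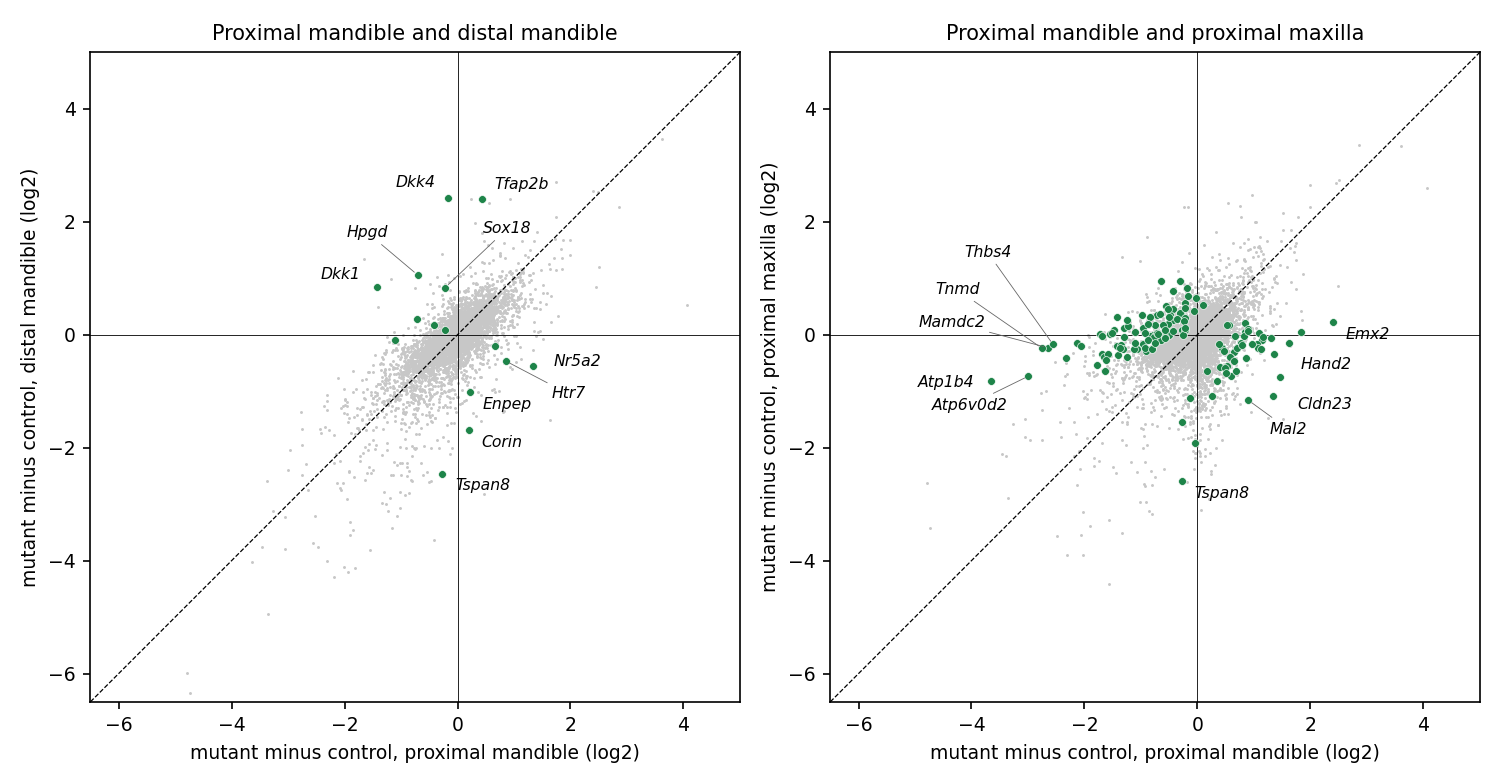
Log2 change of each gene in the mutant proximal mandible (horizontal axis) against that in the distal mandible (left) and in the proximal maxilla (right), with genes whose effects differ in green and a dashed line at equal effects. Dkk1 lies below 0 on the horizontal axis (-1.43) and above 0 for the distal mandible (0.84), and Tnmd is far from 0 in the mandible (-2.75) but near it in the maxilla (-0.24).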

How the data were processed

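Total RNA of 24 jaw pieces, in 8 groups of 3, was measured on an array of a single colour. The deposited log2 signals were made by the authors with RMA, per the submitters' processing notes, with no version given, and the base was read from the range of 3.29 to 14.86. No detection calls were used. The small number of arrays limits precision, and the part of mutant 3, of the sex markers and of RNA quality was not tested beyond the fits named above. Of 45101 probe sets, 34945 carry exactly 1 symbol, which stand for 18193 genes. RefSeq tables of GRCm38.p6 gave names and promoter windows. For each gene the probe set whose mean was highest was used, and 13942 genes lay above the 40th percentile of an array in at least 3 arrays and were tested.

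The fit in limma 3.58.1 (R 4.3.3) had a mean for each of the 8 groups and used every array (eBayes with trend), two-sided, with Benjamini-Hochberg adjustment over all genes tested, checked on simulated data. Errors of changes are standard errors of this fit, whose spread for each gene is pooled over all groups. Python 3.11.15 was used for tables (pandas 2.3.3, numpy 2.4.6) and figures (matplotlib 3.10.9). The genes named are the 12 called genes in each direction with the largest change and no overlap between the groups, 5 in each direction for differences of effects, the TGF-β genes, 5 genes given with the comparison, and the members of each list with the largest statistics. Unnamed transcripts and sex-linked genes were passed over. Members and lists were chosen with earlier results of these data known. Among eligible list members, those with steady calls were preferred after their values were seen.

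Whether replicate numbers pair arrays was checked by correlating deviations from group means over genes. For mutants and controls r was 0.19, 0.31 and 0.36 without sex-linked genes (0.05, 0.23 and 0.37 with them). Between unlike numbers it was at most 0 without sex-linked genes. The numbers were taken as pairs only in the settings called replicate block. The main fit had no block, so errors, adjusted p-values and counts given without a setting take no account of pairs. Between the ends of the mandible r was 0.26 to 0.54. Between unlike numbers of the 2 ends it was at most 0.04 in the mutants and 0.01 in the controls.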

Additional observations from a re-analysis of the deposited data

Results flagged for a closer look

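The genotype effect in the proximal mandible differed from that in another region for the genes below, by limma's test of the difference itself. Each value is the log2 effect in the proximal mandible minus that in the other region. Set against the distal mandible, the differences were 2.19 for Tspan8 (adjusted p = 0.0176), 1.89 for the protease gene Corin (0.0288), 1.89 for Nr5a2 (0.0219), 1.31 for the serotonin receptor gene Htr7 (0.0176) and 1.25 for the aminopeptidase gene Enpep (0.0219). Those with a more negative effect were Dkk4 (-2.59, adjusted p = 0.0176), Dkk1 (-2.27, 0.00681), Tfap2b (-1.97, 0.0388), the prostaglandin dehydrogenase gene Hpgd (-1.77, 0.0176) and the vascular factor gene Sox18 (-1.05, 0.0176). Corin changed by 0.21 proximally and by -1.69 distally, Hpgd by -0.71 and 1.06, and Sox18 by -0.22 and 0.84.

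Set against the proximal maxilla, the differences were 2.43 for the claudin gene Cldn23 (adjusted p = 0.0222), 2.32 for Tspan8 (0.00586), 2.21 for Hand2 (0.0411), 2.17 for Emx2 (0.0313) and 2.06 for Mal2 (0.0408). They were -2.83 for Atp1b4 (adjusted p = 0.0259), -2.51 for Tnmd (0.00935), -2.42 for Mamdc2 (0.00935), -2.38 for Thbs4 (0.0364) and -2.26 for Atp6v0d2 (0.00586). Cldn23 changed by 1.33 in the mandible and by -1.09 in the maxilla, and Mal2 by 0.90 and -1.16. Of all 20 differences, the calls of Dkk1 against the distal mandible and of Tspan8, Tnmd, Mamdc2 and Atp6v0d2 against the maxilla held whichever of 12 arrays was left out.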

How the results depend on the processing

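In the proximal mandible 2777 genes were called, and 2067 to 3703 under the other settings without a size limit: with only the 6 arrays compared (2067), with a sex score as covariate (2549), with the mean of a gene's probe sets (2551), with a filter at the 60th percentile (2618 of 11079 genes), without a filter (2651), without the mean-variance trend (2707), with array weights (2921), with quantile normalization repeated (3183) and with a replicate block (3703, which included 2776 of the 2777). The block with only the 6 arrays compared, added after the data were seen, gave 2980. A log2 change of at least 1 left 348. Leaving out 1 array gave 1922 to 2751. The share of called genes that were higher was 48.0%, 55.0% without mutant 1, 40.9% without control 2, 53.5% after quantile normalization and 51.5% with the block. Where the block moved a list count quoted by over 1.5 times or changed a call, its value is given beside the list or gene.

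The 15 genes whose effect differed from the distal mandible became 39 with array weights, 50 with only the arrays compared, 56 with the replicate block, and 1 to 29 without 1 array. The 136 that differed from the proximal maxilla became 33 with only the arrays compared, 607 with the replicate block, 68 at a size of at least 1, and 34 to 290 without 1 array. For that contrast r between same-numbered arrays was 0.21, 0.2 and 0.15 in the mutants and 0.27, 0.15 and -0.03 in the controls, so 1 pair was not above 0.1, although same-numbered arrays of the mandible and maxilla carried the same Xist and Y-linked pattern. Whether they are pieces of the same embryos is not stated. Between unlike numbers r was at most -0.02 in the mutants and 0.09 in the controls. The cause of the differences between settings was not tested. In the added setting 16 of 21 cartilage genes, 18 of 19 tendon genes and 16 of 30 muscle genes fell, against 10, 11 and 4 in the main fit. Of 28 epithelial genes 18 rose in it, against 11 in the main fit.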
